A study of Mus musculus with 28 samples.

Results

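Expression of 8 genes of cholesterol synthesis was followed in mouse liver after exposure to methyl methanesulfonate (MMS), an alkylating agent that methylates DNA bases. The genes were Hmgcs1, Idi1, Fdps, Fdft1, Sqle, Lss, Cyp51 and Nsdhl, taken by name, with all 13 of their probe sets among the 12422 non-control probe sets of the array. They were 8 of the 8251 genes with a probe set named for them alone, and 8 of 8 passed the filter on low signal that kept 5487 genes. All 8 encode enzymes of synthesis, and none is a gene of cholesterol uptake. Values are those of each gene's brightest probe set unless another is named: 94325_at for Hmgcs1, 96269_at for Idi1, 99098_at for Fdps, 97518_at for Fdft1, 94322_at for Sqle, 160737_at for Lss, 94916_at for Cyp51 and 98631_g_at for Nsdhl.

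Livers came from wild-type (WT) mice and from Aag null mice, which lack alkyladenine DNA glycosylase, the enzyme that removes methylated purines from DNA (gene symbol Mpg). Each genotype was sampled untreated and 6, 12, 24 and 48 h after MMS, on 28 Affymetrix arrays, 1 per sample. In that order of times the WT groups held 3, 2, 3, 2 and 2 arrays and the Aag null groups 4, 3, 2, 4 and 3. The labels used here give no dose, vehicle, strain, age or sex, no untreated samples matched to the later times, and nothing on whether animals were pooled, so the p-values measure the spread between these arrays, which may be technical. All values below are log2 signals after quantile scaling, differences are on that log2 scale with the standard error (SE) of the fit, and a gene was called where limma's adjusted p (Benjamini-Hochberg over 5487 genes) was under 0.05. In whole liver, fewer cells of a type and less RNA per cell cannot be told apart.

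Cholesterol is built from acetyl-CoA through mevalonate, isoprenoids and squalene, and the liver is a main site of this synthesis. The enzymes of the pathway are transcribed under SREBP2, a membrane-bound transcription factor that is cut and released to the nucleus when sterols in the endoplasmic reticulum are low, and that is held back by INSIG proteins when sterols are high. Among the 8 genes, Hmgcs1 makes HMG-CoA, an early intermediate. Idi1 and Fdps then form and join the isoprenoid units, Fdft1 makes squalene, Sqle and Lss convert squalene to lanosterol, and Cyp51 and Nsdhl remove methyl groups from the sterol ring.

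SREBP2 binds sterol regulatory elements, and NF-Y binds the CCAAT box that often lies beside them. RefSeq promoter windows (GRCm38.p6) were matched for 5 of the 8 genes, Hmgcs1, Idi1, Lss, Cyp51 and Nsdhl. A sterol regulatory element written as TCACNCCAC, on either strand, was in the 250 bases before the start of Hmgcs1 alone among the 5, from 137 to 129 bases before the start. That pattern was in 1.05% of 32851 windows of the same length. CCAAT, on either strand, was in 5 of the 5 windows and in 33.8% of all windows, with 3 matches for Hmgcs1, 2 each for Idi1 and Nsdhl, and 1 each for Lss and Cyp51. The 180 bases before the start are shown for Hmgcs1 and Idi1, a pair of genes with large differences after MMS, with the matches in capitals (ATTGG is CCAAT read on the other strand, and the third match of Hmgcs1 lies farther upstream). Hmgcs1 lies at chr13:119690171-119690350 and Idi1 at chr13:8885426-8885605, both on the plus strand.
Hmgcs1: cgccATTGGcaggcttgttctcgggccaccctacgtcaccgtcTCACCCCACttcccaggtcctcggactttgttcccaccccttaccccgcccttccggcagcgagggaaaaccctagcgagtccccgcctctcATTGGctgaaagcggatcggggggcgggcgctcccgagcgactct
Idi1: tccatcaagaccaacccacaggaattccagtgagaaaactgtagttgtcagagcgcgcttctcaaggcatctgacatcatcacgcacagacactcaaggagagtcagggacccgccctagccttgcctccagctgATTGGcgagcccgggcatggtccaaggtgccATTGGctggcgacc
The matches are descriptions of these letters, and binding was not measured.

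The 28 arrays were not alike in a way that bears on every WT value. On 9 hybridization control probe sets, 5 arrays had mean log2 signals of 10.25 to 11.65 and the other 23 had 6.42 to 9.22. Every WT untreated array (3 of 3) belonged to the 5, with replicates 3 and 4 of the Aag untreated group, and the 5 also had a higher 3′ minus 5′ difference of Gapdh (0.63 to 0.92, against -0.37 to 0.21). WT responses therefore have no value within 1 array set, while Aag null responses have one, against untreated replicates 1 and 2. Array set was also fitted as a term over both genotypes, so that its effect on WT values was estimated from the Aag untreated group, which had arrays in both sets. Of 28 replicate pairs the WT pair at 6 h had the lowest correlation (r = 0.837 across genes, against 0.914 to 0.994 in the others), and WT 6 h replicate 1 correlated at 0.984 with Aag 6 h replicate 1. Those 2 arrays had the lowest hybridization controls, 6.42 and 6.59. The female-typical gene Cyp2b9 was at 7.73 to 8.22 in 3 Aag null arrays (untreated replicate 3, and replicates 1 and 2 of 24 h), against 2.49 to 4.21 elsewhere. The same 3 arrays were the lowest for Eif2s3y, a gene of the Y chromosome (2.47 to 2.58, against 3.29 or more elsewhere). They were also the lowest for the male-typical gene Hsd3b5 (2.94 to 5.27, against 6.73 or more). The array-set term rests on 2 against 2 Aag untreated arrays, and replicate 3 is 1 of the 2 with high controls. That term is therefore partly mixed with the female-typical difference, also where it is applied to WT values. The liver label held, since 5 of 5 hepatocyte markers on the array lay above the array median in all 28 arrays and their mean was 10.81 to 11.22. None of the 3 bile duct markers on the array did. Mpg was too dim to check the genotype labels, at 2.38 to 2.87 in WT and 2.27 to 2.60 in Aag null arrays.

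In WT liver the 3 of the 8 genes that act before squalene were called lower after MMS. The 5 that make or modify squalene and sterols were not called lower, though Fdft1 came near at 6 h (-0.66, adjusted p = 0.0615). This contrast was not itself tested, and other genes of the pathway did not follow it. Ebp and Tm7sf2, which act after squalene, were called lower at 6 h. The mevalonate genes Mvk and Mvd were not (WT means of 5.72 untreated and 5.88 at 6 h, and of 5.15 and 4.98). With the array set fitted, 6 h differences were -1.02 for Nsdhl, -0.63 for Cyp51, -0.64 for Fdft1, 0.03 for Sqle and -0.001 for Lss, none called. Hmgcs1, Idi1 and Fdps fell at 6 h, Hmgcs1 and Fdps at 12 h, and Fdps alone at 24 and 48 h. Nsdhl, a late sterol enzyme, was called higher at 48 h. With the array set fitted that difference was 0.07 (adjusted p = 0.931), and neither of its other probe sets was called. At 6 h 3 of the 8 genes were called, all lower, where 16.3% of all genes were called and 9.22% were called lower. The median difference of the 8 genes was -0.49, against 0.02 over all genes tested.

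**Figure D1:**
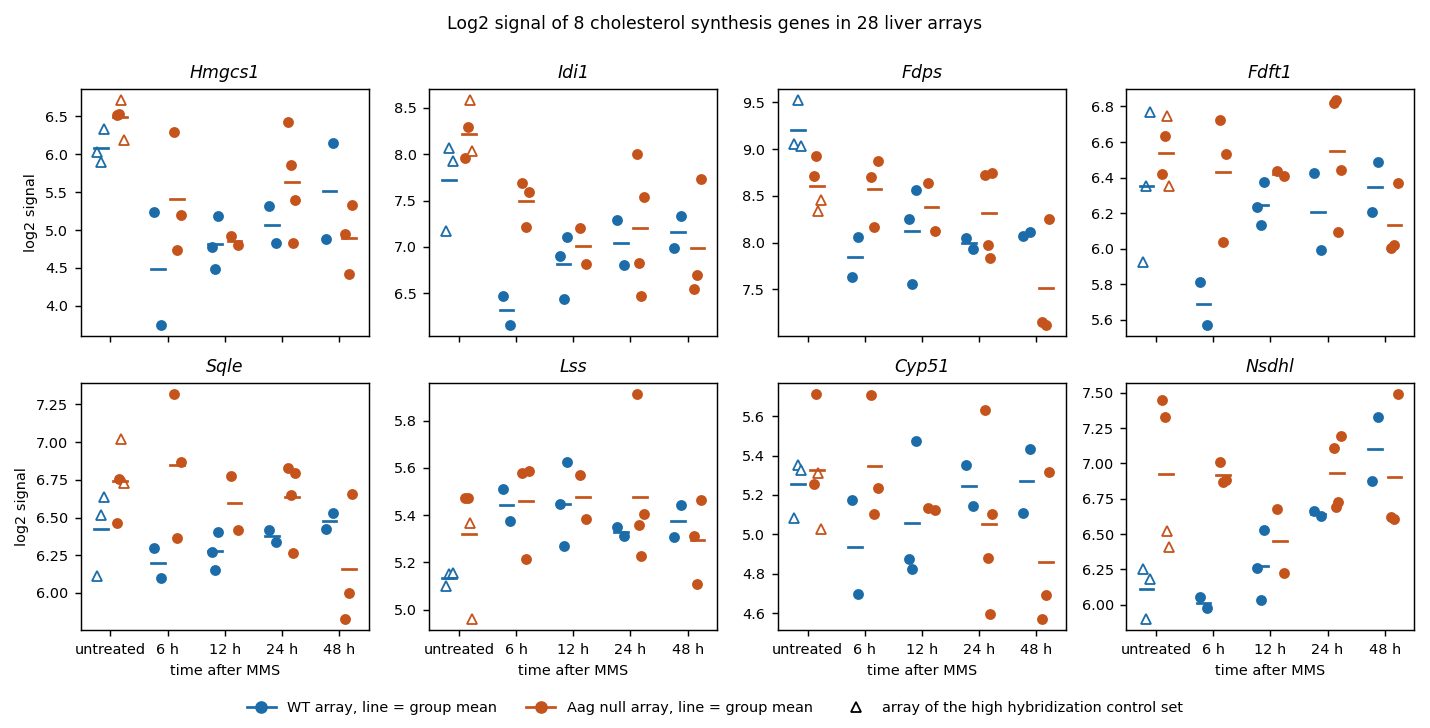
Log2 signal (vertical axis, a separate range for each gene) of the brightest probe set of each of the 8 genes in each of 28 arrays, by time after MMS; points are arrays, short lines are group means, and open triangles are the 5 arrays with high hybridization controls. For Hmgcs1, Idi1 and Fdps both WT 6 h arrays lie below all WT untreated arrays, and Nsdhl is higher in the WT 48 h arrays (6.87 and 7.33) than in the WT untreated arrays (5.90 to 6.26).

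Hmgcs1, the cytosolic HMG-CoA synthase, stood at 6.03, 5.90 and 6.33 in the WT untreated arrays and at 5.23 and 3.75 at 6 h. Both 6 h arrays were below all untreated arrays, and the second was the lowest of all 28. Hmgcs1 fell by 1.60 (SE 0.46, adjusted p = 0.0213), 3.02-fold lower. At 12 h its values were 4.78, 4.48 and 5.18, again below every untreated array, and it fell by 1.27 (SE 0.41, adjusted p = 0.0316), 2.42-fold lower. At 24 h, with 5.32 and 4.82, the difference was -1.01 (adjusted p = 0.151), and at 48 h, with 4.89 and 6.16, it was -0.56 (adjusted p = 0.452) and the groups overlapped. The 6 h call was lost without WT 6 h replicate 2 (-0.85, adjusted p = 0.23) and without WT untreated replicate 3 (-1.47, adjusted p = 0.0531). The 12 h call was lost without any 1 of the 3 WT untreated arrays (-1.3, -1.36 and -1.15, adjusted p = 0.0663, 0.0517 and 0.0878) or without WT 12 h replicate 1 or 2 (-1.26 and -1.11, adjusted p = 0.0814 and 0.117), and on the deposited signals without scaling (-1.16, adjusted p = 0.0522). Fitting the array set as a term gave differences about as large, -1.67 (SE 0.70) at 6 h and -1.35 (SE 0.67) at 12 h, with adjusted p = 0.241 and 0.338.

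Idi1, which interconverts the isoprenoid building blocks, was at 7.18, 8.07 and 7.92 in the WT untreated arrays and at 6.47 and 6.16 at 6 h. The groups did not overlap, and Idi1 fell by 1.41 (SE 0.38, adjusted p = 0.0137), 2.65-fold lower. At 12 h it was at 6.90, 6.44 and 7.10, below the untreated arrays, a difference of -0.91 (adjusted p = 0.0568). The 24 h arrays (7.29 and 6.80) and the 48 h arrays (6.99 and 7.33) overlapped the untreated ones, with differences of -0.68 (adjusted p = 0.248) and -0.56 (adjusted p = 0.339). The 6 h call was lost without WT 6 h replicate 2 (-1.25, adjusted p = 0.0521), and the 12 h difference was called without WT untreated replicate 1 (-1.18, adjusted p = 0.0307). The array set as a term left -1.22 (SE 0.57, adjusted p = 0.306) at 6 h.

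Fdps, which joins isoprenoid units into farnesyl diphosphate, was the one gene called in WT liver at all 4 times. Its 3 WT untreated values, 9.05, 9.52 and 9.03, were above those of the other 25 arrays. The 6 h arrays read 7.64 and 8.06, the 12 h arrays 8.25, 7.56 and 8.57, the 24 h arrays 8.05 and 7.94, and the 48 h arrays 8.08 and 8.11. At 6 h Fdps fell by 1.35 (SE 0.34, adjusted p = 0.00951), and the 12 h value fell by 1.07 (SE 0.30, adjusted p = 0.0155). The later values fell by 1.21 (24 h, SE 0.34, adjusted p = 0.0208) and 1.11 (48 h, SE 0.34, adjusted p = 0.0323). These were 2.55-fold, 2.11-fold, 2.31-fold and 2.15-fold lower.

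The Fdps calls rested on few arrays. The 6 h call was lost without WT 6 h replicate 1 (-1.14, adjusted p = 0.0548), and the 12 h call without WT 12 h replicate 2 (-0.79, adjusted p = 0.104). Without WT untreated replicate 2 the calls at 12, 24 and 48 h were lost (-0.91, -1.05 and -0.95, adjusted p = 0.0678, 0.0748 and 0.1). The 24 h call was lost without either 24 h array (-1.27 and -1.15, adjusted p = 0.103 and 0.152), as was the 48 h call without either 48 h array (-1.09 and -1.13, adjusted p = 0.123 and 0.141). Fitting the array set as a term gave larger differences, -1.78, -1.5, -1.64 and -1.54, at adjusted p = 0.0674, 0.0975, 0.0763 and 0.0939. In the Aag untreated group the 2 arrays with high controls read 8.33 and 8.46 for Fdps, below the 8.72 and 8.93 of the other pair.

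Fdps has 4 probe sets on the array. The second, 160424_f_at, followed the brightest, 99098_at, over the 28 arrays (r = 0.886), but its WT 6 h difference was -0.83 (adjusted p = 0.0848) and its later WT differences were -0.33, -0.46 and -0.55 (adjusted p = 0.461, 0.382 and 0.279). The other pair, 162217_r_at and 162281_at, was above the array median in 0 of 28 arrays and was not tested, with r of 0.39 and 0.01 to the brightest. With the mean of its 4 probe sets Fdps differed in WT liver by -0.44, -0.54 and -0.49 at 12, 24 and 48 h (adjusted p = 0.0853, 0.0737 and 0.101), and those calls were lost. Which part of the transcript each probe set reads was not analysed here.

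None of the 3 squalene enzymes was called in WT liver. Fdft1, squalene synthase, was at 5.92, 6.35 and 6.77 in WT untreated liver and at 5.81 and 5.57 at 6 h, a difference of -0.66 (SE 0.24, adjusted p = 0.0615). The 6 h values lay below the untreated ones, and without WT untreated replicate 1 the difference was called (-0.87, adjusted p = 0.0245). Its differences at 12, 24 and 48 h were -0.10, -0.14 and -0.003. Sqle, squalene epoxidase, was at 6.12, 6.52 and 6.64 untreated and at 6.30 and 6.10 at 6 h, and its WT differences ran from -0.23 to 0.05, with overlapping groups at every time. Lss, lanosterol synthase, went the other way in sign: 5.10, 5.15 and 5.16 untreated, and 5.27 to 5.62 in the 9 treated WT arrays. No treated WT array overlapped the untreated ones, but the differences of 0.31, 0.31, 0.20 and 0.24 were not called (adjusted p = 0.247, 0.173, 0.516 and 0.393). The share of all genes without such overlap was not counted. Fitted with the array set they were -0.001, 0.002, -0.11 and -0.07.

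Of the sterol demethylation steps, Cyp51, lanosterol demethylase, was at 5.08, 5.35 and 5.33 untreated and at 5.18 and 4.70 at 6 h, and its WT differences ran from -0.32 to 0.02 with overlap at every time. Nsdhl, a sterol dehydrogenase encoded on the X chromosome, was at 6.26, 5.90 and 6.18 in untreated WT liver. After MMS it read 6.05 and 5.98 (6 h), then 6.26, 6.03 and 6.53 (12 h), 6.66 and 6.63 (24 h), and 6.87 and 7.33 (48 h). The 24 and 48 h arrays were above all untreated ones. The difference was 0.53 at 24 h (adjusted p = 0.226), and Nsdhl rose by 0.99 at 48 h (SE 0.28, adjusted p = 0.0231), 1.98-fold higher, where 6.32% of all genes were called higher.

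The Nsdhl call moved with the array set. Within the Aag untreated group its values were 6.53 and 6.41 in the 2 arrays with high controls and 7.45 and 7.33 in the others. In the fit that also holds the array set, the WT 48 h difference was 0.07 (SE 0.33, adjusted p = 0.931). The same fit gave Nsdhl -1.02 at 6 h (SE 0.33, adjusted p = 0.136), -0.76 at 12 h and -0.39 at 24 h, and Cyp51 -0.63, -0.51, -0.32 and -0.30 from 6 to 48 h, none of them called. The 48 h call was also lost without WT 48 h replicate 2 (0.76, adjusted p = 0.231) and without WT untreated replicate 2 (0.88, adjusted p = 0.0694). Of its other probe sets, 93868_at (r = 0.772 with the brightest) differed by 0.84 at WT 48 h (adjusted p = 0.173) and 98630_at (r = 0.595) by 0.28 (adjusted p = 0.414), and the mean of its 3 probe sets by 0.70 (adjusted p = 0.0669).

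By time, the members' calls in WT liver were 3, 2, 1 and 2 of 8 at 6, 12, 24 and 48 h. Over all genes 21% were called at 12 h, 13.8% at 24 h and 14.4% at 48 h, and 10.2%, 7.2% and 8.11% were called lower. The members' share called was therefore near the background at every time after 6 h, and at 6 h it was 3 of 8. These 4 comparisons share the same 3 untreated arrays. The members' median differences were -0.49, -0.17, -0.09 and 0.01. No step between successive WT times was called for a member: 0 of 8 from 6 to 12 h, where 0.109% of all genes were called, 0 of 8 from 12 to 24 h (0.0182%) and 0 of 8 from 24 to 48 h (0.0182%). At an unadjusted p under 0.05 the members counted 1, 0 and 0, against 288, 109 and 234 of all genes. In a test by limma of any difference among the 4 WT times 0 of 8 were called (0.747% of all genes), with 1 member, Nsdhl, among 466 genes at an unadjusted p under 0.05.

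**Figure D2:**
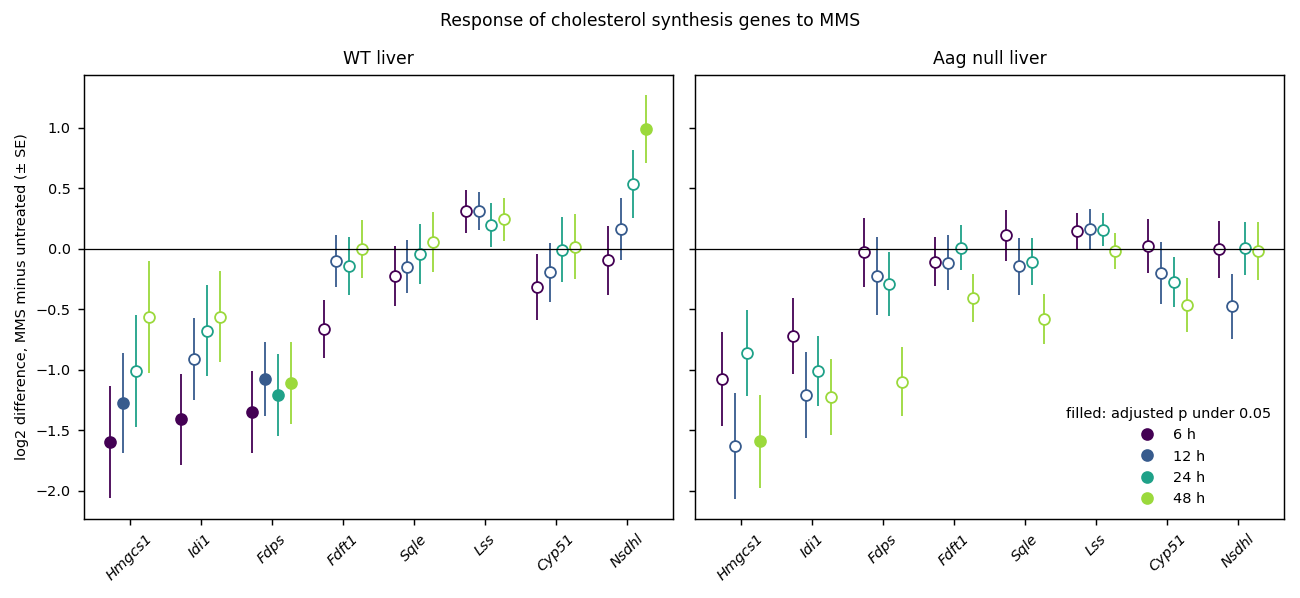
Difference in log2 signal between MMS-treated and untreated liver for the 8 genes at 6, 12, 24 and 48 h (colours), in WT (left) and Aag null liver (right); bars are ± 1 SE, and filled points were called. In WT liver Hmgcs1, Idi1 and Fdps are lowest at 6 h (-1.60, -1.41 and -1.35), and in Aag null liver Hmgcs1 at 48 h is the one filled point.

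In Aag null liver Hmgcs1 and Idi1 were also lower after MMS in their means at every time, and Fdps was near its untreated level until 48 h. Hmgcs1 at 48 h was the single call among the 8 genes. Few genes of any kind were called in this genotype: 0.51%, 0.437%, 1.08% and 0.911% from 6 to 48 h, with 0.601% called lower at 48 h. At 6, 12 and 24 h limma called 0 of 8 members, with 2 of 8 at an unadjusted p under 0.05 each time (Hmgcs1 and Idi1), against 761, 611 and 823 of all genes.

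Hmgcs1 was at 6.52, 6.54, 6.71 and 6.19 in untreated Aag null liver. At 6 h the values were 6.30, 4.74 and 5.20, so that 1 array overlapped the untreated ones and the others did not, a difference of -1.08 (SE 0.39, adjusted p = 0.2). At 12 h they were 4.92 and 4.80, below all untreated arrays, a difference of -1.63 (SE 0.44, adjusted p = 0.117). At 24 h they spread from 4.83 to 6.43 over 4 arrays (6.43, 5.86, 4.83 and 5.40), a difference of -0.86 (adjusted p = 0.258). At 48 h, with 4.94, 4.42 and 5.34, the groups did not overlap, and Hmgcs1 fell by 1.59 (SE 0.39, adjusted p = 0.0474), 3.01-fold lower. This call was lost without Aag untreated replicate 2, 3 or 4 (-1.58, -1.52 and -1.69, adjusted p = 0.0708, 0.142 and 0.0947) and without any 1 of the 3 arrays at 48 h (-1.61, -1.35 and -1.81, adjusted p = 0.114, 0.269 and 0.119), and in all under 14 of 16 alternatives, each with the same sign. Against the 2 untreated arrays of the same array set the differences were -1.12, -1.67, -0.90 and -1.63 from 6 to 48 h (adjusted p = 0.521, 0.265, 0.569 and 0.227), about the size they had against all 4.

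Idi1 was at 7.96, 8.29, 8.58 and 8.04 untreated. The 6 h arrays read 7.69, 7.21 and 7.59, the 12 h arrays 7.20 and 6.81, the 24 h arrays 8.0, 6.82, 6.46 and 7.54, and the 48 h arrays 6.55, 6.69 and 7.73. Of these 12 treated arrays 1, the first at 24 h, reached the untreated range. The differences were -0.72, -1.21, -1.01 and -1.23, with adjusted p = 0.298, 0.163, 0.0907 and 0.0586. Within the same array set they were -0.63, -1.12, -0.92 and -1.13. The 48 h difference of Idi1 was called without Aag untreated replicate 1 (-1.31, adjusted p = 0.022).

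Fdps was at 8.72, 8.93, 8.33 and 8.46 untreated in Aag null liver. The 6 h arrays read 8.70, 8.16 and 8.87, the 12 h arrays 8.64 and 8.12, and the 24 h arrays 8.72, 7.98, 7.84 and 8.74. All 3 groups overlapped the untreated arrays, with differences of -0.03, -0.23 and -0.29. At 48 h it was at 7.16, 7.12 and 8.25, below every untreated array, and the difference was -1.10 (SE 0.28, adjusted p = 0.0598). It was called without Aag untreated replicate 1 (-1.06, adjusted p = 0.0375). The second Fdps probe set differed by -0.69 at 48 h (adjusted p = 0.206).

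The later enzymes in Aag null liver were not called at any time. From 6 to 24 h the differences of Fdft1, Sqle, Lss, Cyp51 and Nsdhl ran from -0.48 to 0.16, and some treated arrays lay outside the untreated range. Within the same array set Nsdhl differed by -0.47, -0.94 and -0.46 (adjusted p = 0.598, 0.162 and 0.51), against -0.005, -0.48 and 0.002 from all 4 untreated arrays. At 48 h all 8 genes had negative differences, with a median of -0.52 against 0.01 over all genes, and 4 of 8 had an unadjusted p under 0.05 (930 of all genes did). Sqle was at 5.83, 6.00 and 6.66, against 6.47, 6.76, 7.02 and 6.73 untreated, a difference of -0.58 (adjusted p = 0.158). Cyp51 was at 4.57, 4.69 and 5.32, against 5.26, 5.71, 5.31 and 5.03, a difference of -0.47 (adjusted p = 0.295). Fdft1 differed by -0.41 (adjusted p = 0.303), and Lss and Nsdhl each by -0.02. Within the same array set Nsdhl differed by -0.48 (adjusted p = 0.737) and Lss by -0.18 (adjusted p = 0.999).

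The third Aag null array at 48 h was the highest of the 3 for 8 of 8 genes. For Sqle, Cyp51 and Fdft1 it lay inside the untreated range while the others lay below it. Without that array the median difference of the 8 genes was -0.76, and no member was called. In steps between successive Aag null times 0 of 8 members were called by limma, where 0.0182%, 0% and 0.292% of all genes were. From 24 to 48 h all 8 differences were negative (median -0.32), led by Fdps at -0.81 (SE 0.28, adjusted p = 0.275), with 3 of 8 at an unadjusted p under 0.05 against 490 of all genes. In the 2 earlier steps 0 members passed that limit, against 104 and 174 of all genes. The test of any difference among the 4 Aag null times called 0 of 8, against 0.31% of all genes, with 2 members, Fdps and Sqle, among 487 genes at an unadjusted p under 0.05.

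Between genotypes no member was called at any time. In untreated liver 7 of 8 were higher in Aag null by their means, where 46.9% of all genes were lower, and 4.5% of all genes were called. The Aag null arrays came from both array sets, while every WT array had high controls. Nsdhl had the largest difference, 0.81 (SE 0.24, adjusted p = 0.0506), the 4 Aag null arrays (6.41 to 7.45) lying above the 3 WT arrays. Among the arrays with high controls it was 0.35 (adjusted p = 0.423), and its probe set 98630_at differed by -0.02. It was called without Aag untreated replicate 3 (0.95, adjusted p = 0.0294) or 4 (0.99, adjusted p = 0.0201), which left out an array with high controls. Fdps was the exception in sign, lower in Aag null by its mean with no overlap (-0.59, adjusted p = 0.251), and -0.81 (adjusted p = 0.211) among the arrays with high controls. Among those arrays Cyp51 was also negative, at -0.08 (adjusted p = 0.894), and Lss was at 0.03 (adjusted p = 0.947). In all, 2 of 8 members and 1078 of all genes had an unadjusted p under 0.05.

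At 6 h after MMS all 8 genes were higher in Aag null than in WT liver by their means, a comparison within 1 array set. The median difference was 0.73, against -0.003 over all genes, and 5 of 8 members had an unadjusted p under 0.05, as did 268 of all genes. Limma called 0 of 8, where 0.182% of all genes were called. For Idi1 the WT arrays read 6.47 and 6.16 and the Aag null arrays 7.21 to 7.69, a difference of 1.18 (SE 0.38, adjusted p = 0.486). Nsdhl differed by 0.91 (adjusted p = 0.47), Fdft1 by 0.74 (adjusted p = 0.487), Fdps by 0.73 (adjusted p = 0.953) and Sqle by 0.65 (adjusted p = 0.73), each without overlap between the genotypes. Hmgcs1 (0.92), Cyp51 (0.41) and Lss (0.02) overlapped. The share of all genes without overlap between groups this small was not counted, so the overlaps only describe these genes. The median difference was 0.59 without WT 6 h replicate 2 and 0.81 without WT 6 h replicate 1, and in the latter Hmgcs1 was called (1.66, adjusted p = 0.0404). The mean of the Kupffer cell and macrophage markers ran from 4.34 to 4.75 over all WT arrays and from 4.55 to 5.17 over all Aag null arrays, with 1 of the 6 on the array above the median in all 28, and its part in the genotype differences was not tested.

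**Figure D3:**
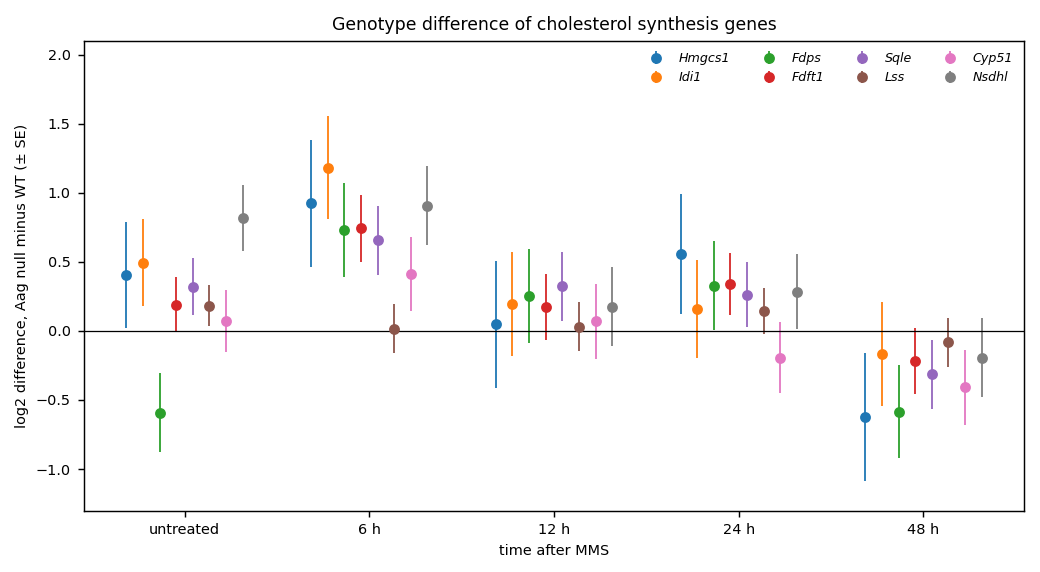
Difference in log2 signal between Aag null and WT liver (vertical axis, ± 1 SE) for the 8 genes (colours) in untreated liver and at 4 times after MMS. All 8 are above 0 at 6 h and below 0 at 48 h, and no difference was called.

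At 12 h the 8 genotype differences were all positive but small (median 0.18), at 24 h 7 of 8 were positive (median 0.27), and at 48 h all 8 were negative (median -0.27). None was called and none had an unadjusted p under 0.05. Of all genes 0.0182% were called at 12 h and 0% at 24 and at 48 h, with 70, 68 and 194 at an unadjusted p under 0.05. The differences between the 2 responses to MMS, tested as an interaction, were also not called for any member: 0 of 8 at each time, where 0.237%, 0.164%, 0.0364% and 0.2% of all genes were called from 6 to 48 h. At an unadjusted p under 0.05 there were 1, 0, 1 and 1 members, against 528, 452, 558 and 716 of all genes. For Fdps, called in WT and not in Aag null liver at 6 h, the response differed by 1.32 (SE 0.44, adjusted p = 0.255). For Nsdhl at 48 h it differed by -1.01 (SE 0.37, adjusted p = 0.234), and for Hmgcs1 at 48 h by -1.03 (SE 0.60, adjusted p = 0.48). A call in 1 genotype alone was therefore not shown to be a difference between them.

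In 5 of the 8 treated groups the same array was highest for all 8 genes. In WT liver at 12 h the third array was the highest for 8 of 8 genes and the second the lowest for 8 of 8. The first array at 24 h and the second at 48 h in WT liver, and the first at 12 h and the third at 48 h in Aag null liver, were also highest for 8 of 8. In the untreated groups the 3 WT arrays were highest for 1, 3 and 4 genes and the 4 Aag null arrays for 1, 3, 4 and 0. Treated and untreated groups are not alike here, since WT 24 h, WT 48 h and Aag null 12 h hold 2 arrays each. The Aag untreated group also mixes both array sets. How often 1 array ranks highest over all genes was not counted. At 6 h the WT arrays were highest for 7 and 1 genes and the Aag null arrays for 6, 0 and 2. At 24 h in Aag null liver the 4 arrays were highest for 5, 1, 0 and 2. After the group means were removed, each gene's correlation with the mean of the other 7 over the 21 treated arrays was 0.738 to 0.925. With group means kept, r over treated arrays was 0.912 for Idi1 (rho 0.914, and 0.878 without the 2 arrays farthest from the median). It was 0.665 for Nsdhl (rho 0.744, and 0.646) and 0.686 for Lss (rho 0.64, and 0.538), and over all 28 arrays r was 0.418 for Nsdhl and 0.318 for Lss. These correlations describe arrays that share scaling and, within a group, condition.

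**Figure D4:**
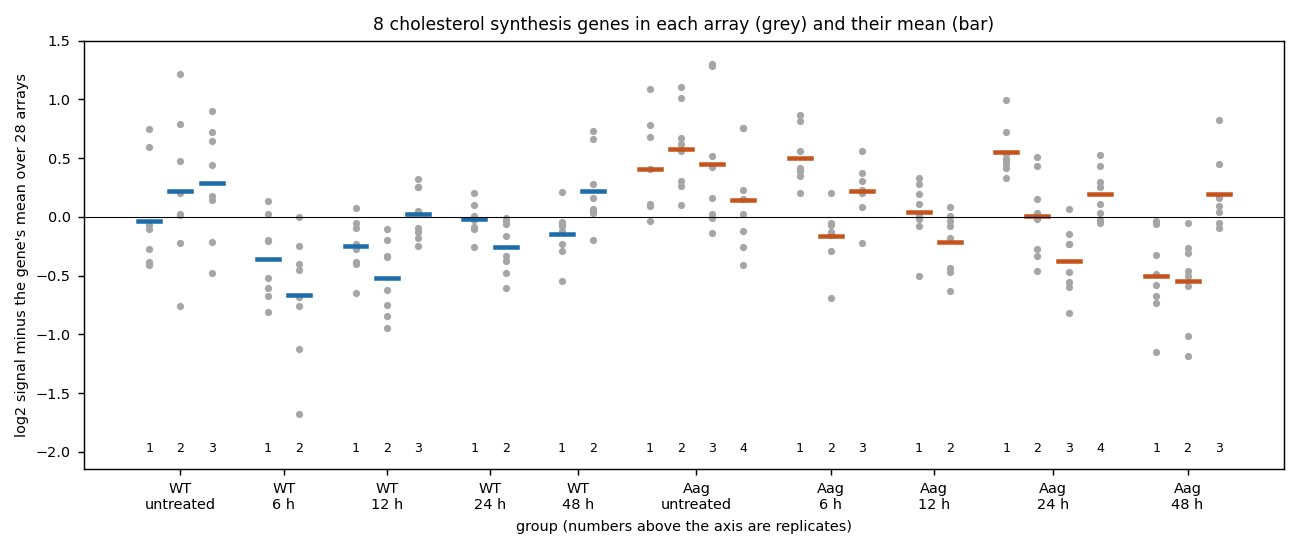
Log2 signal of each of the 8 genes minus that gene's mean over 28 arrays (grey points) and their mean (bars, blue WT and orange Aag null) in every array, grouped by genotype and time. Arrays of 1 group can lie well apart: in Aag null liver at 48 h the means are -0.51, -0.55 and 0.20.

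On the mean of the 8 centred signals, the Aag null 6 h arrays were at 0.50, -0.17 and 0.22, and the 24 h arrays ran from -0.37 to 0.55. Aag 6 h replicate 1, at 0.50, was also 1 of the 2 arrays with the lowest hybridization controls, and Aag 24 h replicate 1, at 0.55, 1 of the 3 with female-typical Cyp2b9. Their part in these means was not tested. Of the 5479 other genes tested, the one most like this mean over the 21 treated arrays was Msmo1, the sterol C4-methyl oxidase that acts just before Nsdhl (r = 0.858, rho 0.834, and 0.821 without the 2 farthest arrays). It was followed by Dhcr7, which makes cholesterol from its last precursor (r = 0.795, rho 0.734, and 0.688), and by Fasn, fatty acid synthase (r = 0.777, rho 0.773, and 0.673). Dhcr7 was above the array median in 2 of 28 arrays, in the WT untreated and Aag null 24 h groups, so its r rests mostly on dim signals. Next came Acly, ATP citrate lyase, which supplies cytosolic acetyl-CoA (r = 0.76), Pdk1 (0.74), Tmem97 (0.735), the fatty acid elongase Elovl6 (0.728) and Sod1 (0.723). Over all 28 arrays Msmo1 still ranked first (r = 0.775), while Dhcr7 fell to rank 79 (r = 0.508), Acly to rank 212 (r = 0.448), and Pdk1, Tmem97 and Elovl6 had r of 0.27, 0.282 and 0.288.

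Of 38 other genes listed for the pathway, 20 were on the array and 19 were tested. In WT liver 3 were called higher and 4 lower at 6 h, 3 and 1 at 12 h, 2 and 0 at 24 h, and 4 and 0 at 48 h, where 16.3%, 21%, 13.8% and 14.4% of all genes were called. These counts include Dhcr7 and Hsd17b7, whose calls are not read as results (below). The median differences of the 19 genes were -0.16, -0.01, 0.09 and 0.12. In Aag null liver 0 of 19 were called at any time, with 4, 2, 2 and 4 at an unadjusted p under 0.05, against 761, 611, 823 and 930 of all genes. Between genotypes 0 of 19 were called by limma, with 5 at that limit untreated and 3, 0, 0 and 1 after MMS, against 1078, 268, 70, 68 and 194 of all genes. Insig1 was listed at 2.04 to 2.92 over the 28 arrays, too dim to be tested.

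Among the late sterol steps 6 genes were tested, and Ebp and Tm7sf2 fell in WT liver at 6 h. Ebp, the sterol isomerase, fell by 1.10 at 6 h (SE 0.32, adjusted p = 0.02) and by 1.16 at 12 h (SE 0.28, adjusted p = 0.0058). The sterol reductase Tm7sf2 fell by 0.54 at 6 h (SE 0.18, adjusted p = 0.0404). Dhcr7 was called lower at 6 h (-0.81, SE 0.28, adjusted p = 0.046). However, it passed the filter through 2 of 28 arrays, 1 of them WT untreated. It had to be high in that group, so its call is not read as a result. Hsd17b7, the ketosteroid reductase of sterol demethylation, was called higher at 6 and 48 h, but it passed the filter through 2 of 28 arrays, 1 at WT 6 h and 1 at WT 48 h. It had to be high in those groups, so its calls are not read as results. Msmo1 was not called at any time, with WT differences from -0.67 at 6 h to 0.48 at 24 h.

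Of 3 mevalonate genes tested, Ggps1, which makes geranylgeranyl diphosphate and so draws from farnesyl diphosphate, rose at all 4 times in WT liver (0.50, 0.63, 0.59 and 0.48, adjusted p = 0.0264, 0.00249, 0.0116 and 0.0377). It was above the array median in 21 of 28 arrays and in no WT untreated array (3.53 to 4.01), so these rises start from a dim signal. Of 5 uptake and handling genes, Npc2, a lysosomal cholesterol carrier, fell by 0.48 at 6 h (SE 0.12, adjusted p = 0.00979) and no other was called. Of 4 efflux and esterification genes, Abca1, the cholesterol exporter, rose by 1.40, 1.18 and 1.60 at 6, 12 and 48 h (adjusted p = 0.0194, 0.0219 and 0.00891). Lcat, which esterifies cholesterol in plasma lipoproteins, rose by 0.75, 0.85 and 0.79 at 12, 24 and 48 h (adjusted p = 0.00439, 0.00665 and 0.00923). All of these are WT responses whose untreated arrays belong to the set with high controls, and treatment and array set cannot be told apart for them.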

How the data were processed

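Liver total RNA was extracted with a column kit and biotinylated for hybridization, per the labels' protocols. The authors deposited 1 signal per probe set and array, taken here as log2 from its range; the sources used here do not name the summary method or any background correction. Deposited array medians spread over 0.215, so the 28 arrays were quantile scaled after 66 control probe sets were left out, the brightest probe set was kept per gene, and genes that exceeded their array's median on 2 or more arrays were tested. Groups came from sample titles. limma 3.58.1 (R 4.3.3) fitted 1 mean per group over all 28 arrays, with a mean-variance trend, 18 residual degrees of freedom and Benjamini-Hochberg adjustment over 5487 genes. The number of arrays, 2 to 4 a group, limits the precision. The code was tested on simulated data.

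The members and lists were chosen with earlier results of these data known. Every probe set of the 8 genes is reported whatever its value. Other pathway genes are named where called, or for their role, and the 8 genes most like the members by their correlation over treated arrays. Probe sets were named through GEO's platform annotation, in which 11251 had a gene symbol, 396 of them several, and 1237 had none. Of the non-control probe sets 10833 had 1 symbol. Alternatives were unscaled and median-centred signals, no filter, the mean of probe sets, every probe set, a replicate block, the array set as a term or within 1 set, and leaving out the female-typical arrays or each array in turn.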

Additional observations from a re-analysis of the deposited data

How the results depend on the processing

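No called difference of the 8 genes changed direction under the alternatives run (other genes have none), and 331 recomputed counts of members called were within 1.5 times the main count while 41 were not. Most comparisons had a main count of 0, and counts that stayed at 0 are among the 331. That number therefore says little about how stable the calls are. With the deposited signals unscaled, the all-gene median moved by 0.11, 0.14, 0.15 and 0.12 in the WT responses at 6 to 48 h, and 1 member was called at WT 12 h, 2 at Aag null 48 h and 1 in the untreated genotype comparison. Without a filter, and with every probe set tested, 0 members were called at Aag null 48 h and 1 (Nsdhl) between untreated genotypes. With the mean of a gene's probe sets, 1 was called at WT 12 h and 0 at WT 24 h and WT 48 h. Without the female-typical arrays 0 were called at Aag null 48 h and 1 between untreated genotypes. With the array set as a term 0 were called in any WT response and 0 at Aag null 48 h, also within 1 array set. That model has a larger SE, and all of its values for called genes kept their sign. The value of Nsdhl at WT 48 h, however, shrank from 0.99 to 0.07, so its call was lost in size and not only in precision.

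Leaving out 1 array at a time gave 1 to 4 members called at WT 6 h, 0 to 2 at WT 12 h, 0 to 1 at WT 24 h, 0 to 2 at WT 48 h, 0 to 3 at Aag null 48 h, 0 to 1 between untreated genotypes and 0 to 1 between genotypes at 6 h. Over all genes, WT 6 h calls numbered 893, and 1543 without WT 6 h replicate 2. Other calls lost when an array was left out are given beside each gene. Of differences not called in the report, those of Idi1 (-1.36, adjusted p = 0.0481) and Fdps (-1.27, adjusted p = 0.0399) at Aag null 48 h and of Nsdhl between untreated genotypes (0.88, adjusted p = 0.0391) were called on the deposited signals, and Fdps at Aag null 48 h also on median-centred signals (-1.38, adjusted p = 0.041). Nsdhl between untreated genotypes was also called without a filter (adjusted p = 0.0388), with every probe set tested (0.0485) and without the female-typical arrays (0.95, adjusted p = 0.0426), as was Idi1 at WT 12 h without those arrays (-0.91, adjusted p = 0.0445). The cause was not tested.

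With the replicate number as a block, 1 member (Nsdhl) was called at WT 48 h, where Fdps lost its call (-1.05, adjusted p = 0.0603), and 0 at Aag null 48 h, where Hmgcs1 lost its call (-1.68, adjusted p = 0.0747). No other count moved. Same-numbered arrays of different groups had a median correlation of deviations of -0.03 over 106 pairs, and 13 of 28 arrays lay closest to their own number. Signals near background, such as Insig1 and the 2 dim Fdps probe sets, could not be tested.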
